A study of Mus musculus with 6 samples.

Results

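The replication-dependent histone genes were followed in mouse neural stem cells on the way to pluripotency. They are the 68 genes, of 20325 in the deposited tables, whose symbols place them in the histone clusters Hist1 to Hist4. By class they comprised 18 H2A, 19 H2B, 12 H3 and 13 H4 genes, which encode the core histones, and 6 genes of the linker histone H1. By cluster, 54 belonged to Hist1, 10 to Hist2, 3 to Hist3 and 1 to Hist4. RNA-seq libraries, 3 per group, came from cells sorted as Nanog+E-cadherin+ or as Nanog+E-cadherin-. The cells of both populations were neural stem cells taken from mice at postnatal day 4, of a mixed 129/Black 6 strain. Both alleles of the ColA1 locus carried Stemcca, a doxycycline-inducible cassette for Oct4, Sox2, c-Myc and Klf4, and 1 allele of Rosa26 carried the transactivator rtta that doxycycline activates. Both populations received doxycycline until day 7 and were positive for Nanog. They differed in the sort by E-cadherin, a cell adhesion protein of epithelial and pluripotent cells. No untreated or Nanog-negative library was used here, so each comparison is between 2 reprogramming populations. The labels do not state whether replicates were separate cultures, so p-values measure the spread between these libraries, which may be technical.

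Replication-dependent histone genes supply the histones that package newly copied DNA, and their mRNAs accumulate in S phase. Most of these mRNAs end in a conserved stem-loop, bound by SLBP, where other mRNAs carry a poly(A) tail, although some members also give polyadenylated transcripts. Replication-independent variants such as H2afz and H3f3b are made throughout the cell cycle from polyadenylated mRNAs. Library preparation used the TruSeq RNA kit, whose usual procedure selects poly(A) RNA. The labels do not say whether that step was used, so the values below are levels in these libraries and not of histone mRNA in the cell.

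Total expected counts ran from 8851110 to 39630916 per library. Cdh1, which encodes E-cadherin, stood at 104, 143 and 139 CPM (counts scaled to a common library size) in Nanog+E-cadherin+ replicates 1, 2 and 3 and at 16.5, 20.3 and 15.4 CPM in the Nanog+E-cadherin- replicates, so its groups did not overlap and followed the sort. Nanog transcripts overlapped, at 101 to 131 against 78.6 to 135 CPM. All 10 neural stem and radial glia markers listed reached at least 1 CPM in every library, as did 5 of 7 neuron markers (sums of 144 to 992 CPM) and 4 of 8 oligodendrocyte lineage markers (sums of 102 to 331 CPM). Of 10 microglia and blood cell markers, 6 were below 1 CPM in every library and 2 of these were at 0. Nanog+E-cadherin- replicates 2 and 3 stood apart by their signal over 1447 olfactory and vomeronasal receptor genes, which are silent in most tissues: 1886 and 1215 CPM, against 31.9 to 155 CPM in the other 4 libraries. The fitted changes of the classes and leading genes are therefore also given without Nanog+E-cadherin- replicates 2 and 3. There Nanog+E-cadherin- replicate 1 alone stands for its population. Those fits have no replicate block and set all 3 Nanog+E-cadherin+ libraries against that library. Population and replicate number are mixed in them, so their signs can differ from the log2 ratio within replicate number 1.

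The stem-loops show what sets these transcripts apart from other mRNAs. The hairpin searched for had 16 letters, with 6-base arms that pair, GG at its start, CC at its end and TT in its loop. Allowing 1 unpaired position, it was found within 400 bases after the coding end in 43 members. These are of the 66 that have a coding transcript in GENCODE M21 (GRCm38). The search stopped where the annotated transcript ends, which for some of the other 23 is the stop codon. Hist1h2ai, for example, has 393 bases with a coding length of 390. A member without a hit can therefore still have the stem-loop. The sequences below are shown for members described in the results, 1 or 2 per class, so that the near-identity of the loops and a form of the H4 loop can be seen. Capitals mark the 16 letters of the stem-loop.
Hist1h1c, chr13:23739507-23739532, + strand: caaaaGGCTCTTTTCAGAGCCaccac
Hist3h2a, chr11:58955167-58955192, + strand: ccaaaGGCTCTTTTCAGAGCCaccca
Hist1h2bf, chr13:23573760-23573785, - strand: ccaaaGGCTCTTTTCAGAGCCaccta
Hist1h2bk, chr13:22036295-22036320, + strand: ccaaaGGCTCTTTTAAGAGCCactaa
Hist1h3c, chr13:23745042-23745067, - strand: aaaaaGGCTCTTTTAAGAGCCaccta
Hist1h4i, chr13:22040961-22040986, - strand: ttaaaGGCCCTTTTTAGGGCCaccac
The first stem, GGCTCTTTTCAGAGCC, occurred in 25 genes of the classes H1, H2A, H2B and H3. The stem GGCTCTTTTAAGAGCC occurred in 6 genes, and the H4 genes had stems of their own, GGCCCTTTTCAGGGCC in 7 and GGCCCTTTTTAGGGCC in 2. The annotated transcript ended 29 bases after the loop in Hist1h2bf and 30 bases after it in Hist1h2bk. In Hist1h1c it ran on for 840 bases and in Hist3h2a for 1643 bases past the loop. For Hist1h2bc and Hist2h2be, the letters were not in the window searched.

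Many H2A and H2B genes lie head to head and share the stretch between them. In GENCODE, 12 pairs of 1 H2A and 1 H2B gene were found, with start codons 279 to 335 bases apart. The 250 bases before the start sites of an H2A gene and of its H2B partner are shown, in the RefSeq promoter table (GRCm38.p6), for the pair of Hist1h2ah and Hist1h2bk and for Hist1h2ac, the partner of Hist1h2bc. Capitals mark 3 motifs on either strand: the octamer ATTTGCAT, read as ATGCAAAT on the other strand, which Oct1 and Oct4 can bind; CCAAT, or ATTGG; and TATAAA, or TTTATA.
Hist1h2ac, chr13:23683960-23684209, - strand: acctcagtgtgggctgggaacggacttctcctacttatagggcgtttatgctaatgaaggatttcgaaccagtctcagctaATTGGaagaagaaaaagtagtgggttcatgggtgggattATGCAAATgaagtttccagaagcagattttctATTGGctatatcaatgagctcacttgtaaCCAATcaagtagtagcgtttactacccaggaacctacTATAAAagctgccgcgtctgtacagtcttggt
Hist1h2ah, chr13:22035644-22035893, - strand: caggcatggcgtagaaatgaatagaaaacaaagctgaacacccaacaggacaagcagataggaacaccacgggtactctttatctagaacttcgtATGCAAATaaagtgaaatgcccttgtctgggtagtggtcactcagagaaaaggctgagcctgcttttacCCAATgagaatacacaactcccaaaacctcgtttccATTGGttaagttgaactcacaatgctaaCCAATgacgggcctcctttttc
Hist1h2bk, chr13:22035571-22035820, + strand: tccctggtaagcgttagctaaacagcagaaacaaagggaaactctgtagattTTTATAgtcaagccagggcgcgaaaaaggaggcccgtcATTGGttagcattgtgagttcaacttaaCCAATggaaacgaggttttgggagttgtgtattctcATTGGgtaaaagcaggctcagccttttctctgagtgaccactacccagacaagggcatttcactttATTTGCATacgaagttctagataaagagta
Over 300-base windows, from 250 bases before to 50 after the start, 62 members were matched. The octamer was present in 7 of 18 H2A and 7 of 16 H2B genes and in 0 H1, H3 and H4 genes. That is 22.6% of the matched members, against 1.75% of all 32544 promoters of distinct sequence. Head-to-head partners share bases, so 1 site can count for both genes, as the octamer of Hist1h2ah and Hist1h2bk does. CCAAT was present in 85.5% of the members against 37.4% of all promoters, and TATAAA in 56.5% against 13.6%. These are matches of letters in a window and not measured binding.

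All 68 genes together held little of each library. Their summed expected counts were 2127, 1122 and 1628 in the Nanog+E-cadherin+ replicates, which is 0.0102%, 0.00909% and 0.00846% of the library totals. In the Nanog+E-cadherin- replicates they were 3582, 1762 and 1512, or 0.00904%, 0.0163% and 0.0171%. The shares of Nanog+E-cadherin- replicates 2 and 3 were the highest, and that of replicate 1 lay within the range of the other population. For scale, the TPM values of all 68 genes, which are per length, summed to 248, 241 and 211 and to 221, 478 and 607. H2afz alone, the gene of the replication-independent variant H2A.Z, stood at 2604, 2344 and 2185 TPM and at 2046, 1992 and 2008 TPM. The sum over 68 genes was below this 1 variant gene in each of the 6 libraries.

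**Figure D1:**
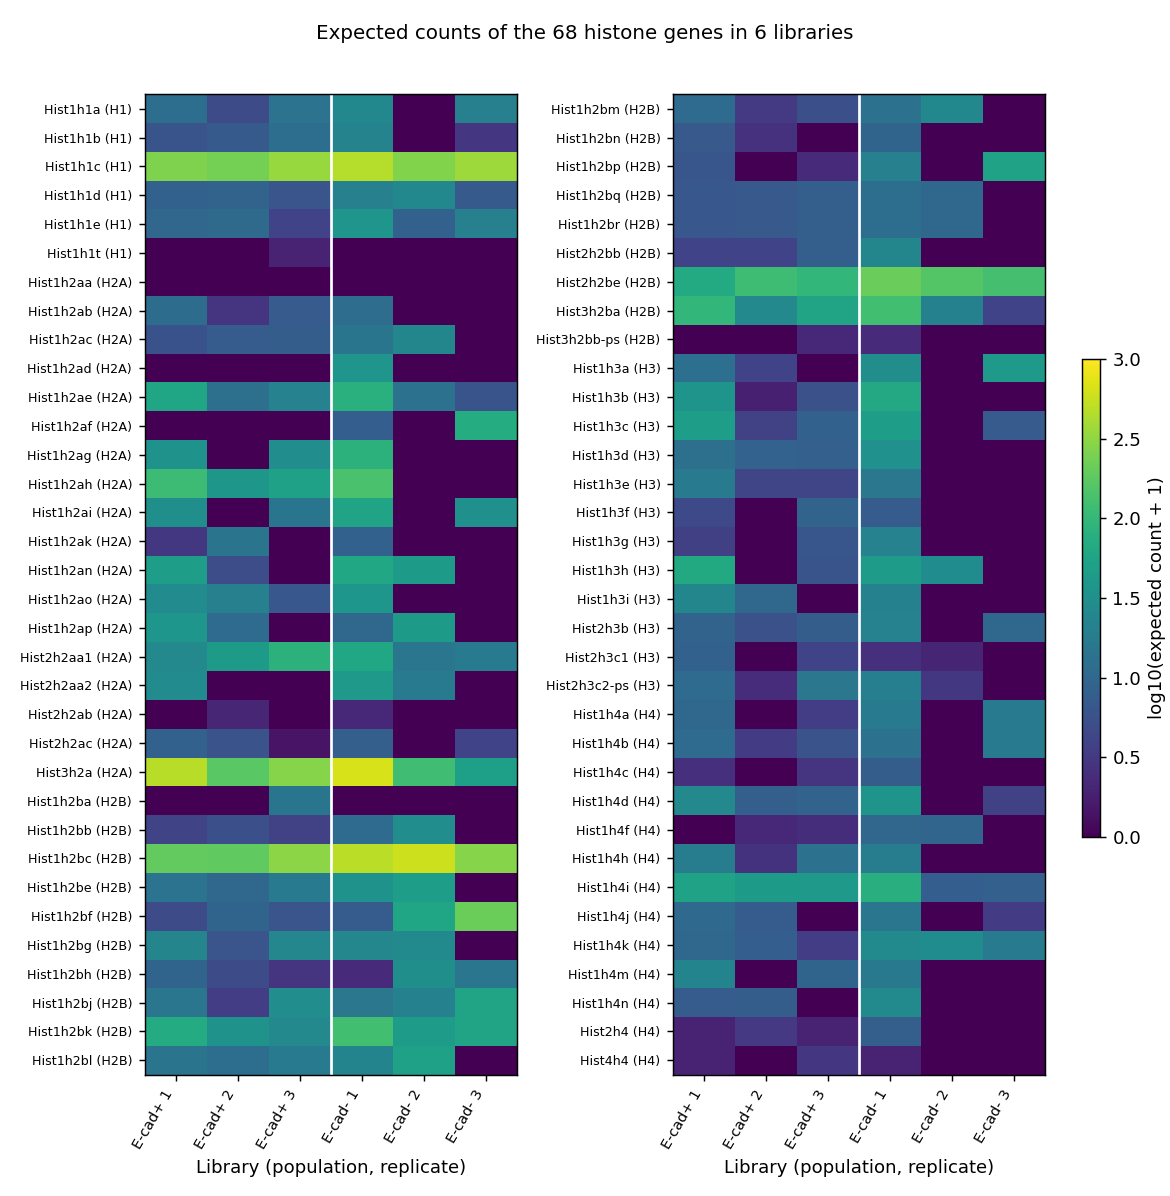
Expected counts of the 68 histone genes (vertical axis, with class in brackets) in the 6 libraries (horizontal axis, Nanog+E-cadherin+ left and Nanog+E-cadherin- right of each white line), as log10(expected count + 1) on the colour scale. The brightest genes are Hist1h1c, Hist3h2a, Hist1h2bc and Hist2h2be, and Nanog+E-cadherin- replicates 2 and 3 have 38 and 40 genes at 0.

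The signal sat in few genes. Hist1h2bc, Hist1h1c, Hist3h2a and Hist2h2be, the 4 genes with the highest mean count, held 46.5%, 63.1% and 62.2% of the histone counts in the Nanog+E-cadherin+ replicates and 50.6%, 64.7% and 54.9% in the others. Only 15 of the 68 genes were above 0 in all 6 libraries, and Hist1h2aa, a testis-specific H2A gene, was at 0 in all of them. At least 1 count was found for 60, 50 and 54 genes in the Nanog+E-cadherin+ replicates and for 65, 30 and 28 in the Nanog+E-cadherin- replicates. Brought to the total of the shallowest library, the expected numbers were 56.9, 48.2 and 48.7 against 59.2, 29.8 and 28.0. Nanog+E-cadherin- replicates 2 and 3 thus detected fewer histone genes than the other 4 libraries also at equal depth, while their summed share was higher.

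A group of 9 members, named after their values were seen, was at 0 in these 2 libraries and above 0 in the other 4. They were the H2A genes Hist1h2ab, Hist1h2ah and Hist1h2ao, the H2B gene Hist2h2bb, the H3 genes Hist1h3b, Hist1h3d and Hist1h3e, and the H4 genes Hist1h4h and Hist2h4. That is 22.5% of the 40 members above 0 in the other 4 libraries, against 3.26% of 14641 genes of all levels. The reverse pattern, at 0 in Nanog+E-cadherin+ replicates 2 and 3 alone, was found for 0 of 15 members and for 11 of 12943 genes.

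Counts of single histone genes are uncertain because their copies are nearly the same. The median identity between coding sequences of equal length was 96.7% among H2A genes, 97.4% among H2B, 97.5% among H3 and 93.9% among H4. Hist1h2ao and Hist1h2ap, Hist2h2aa1 and Hist2h2aa2, Hist1h2bq and Hist1h2br, and Hist1h4m and Hist1h4n were identical pairs. A read that fits several copies is split among them by RSEM, so a gene at 0 can be one whose reads were given to a copy. The gene models differed too, since 33 covered the coding sequence alone and 11 were longer than 1000 bases. Count and CPM sums per class do not depend on how reads are divided within a class. TPM sums do, because the models of a class differ in length: in Nanog+E-cadherin- replicate 3, 71.2 counts of Hist1h2af gave 48.7 TPM and 48.0 counts of Hist3h2a gave 5.77 TPM.

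H2B was the class with the largest fitted difference. Its summed level was 29.5, 31.9 and 30.4 CPM in the Nanog+E-cadherin+ replicates and 32.0, 96.8 and 84.7 CPM in the Nanog+E-cadherin- replicates, that is 30.6 ± 1.26 against 71.2 ± 34.4 CPM (mean ± SD, n = 3). The 3 Nanog+E-cadherin+ libraries and Nanog+E-cadherin- replicate 1 stood close together, and replicates 2 and 3 of the latter were far above them. On this scale the groups did not overlap, by 32.04 in Nanog+E-cadherin- replicate 1 against 31.95 in Nanog+E-cadherin+ replicate 2. On CPM of library totals they overlapped, at 25.6, 34.2 and 31.5 against 28.7, 103 and 91.2. Within equal replicate numbers the log2 ratio of Nanog+E-cadherin+ to Nanog+E-cadherin- was -0.12, -1.60 and -1.48. The fitted log2 fold change was -1.22 ± 0.40 (SE), where edgeR's quasi-likelihood test gave 0.9999 as the adjusted p. With the replicate number as a block it was -1.07 ± 0.29, with an adjusted p of 0.245 in the same test. It passed the threshold with the block in DESeq2 (adjusted p = 0.0191) and limma-voom (adjusted p = 0.0319), and in edgeR without replicate number 1 (-1.52, adjusted p = 0.000525). An exact two-sided permutation test of the 3 against 3 sums gave p = 0.1, the smallest it can give, which rests on the gap between 32.04 and 31.95.

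The H2B sum followed the receptor signal of the 2 libraries that stood apart. Without Nanog+E-cadherin- replicates 2 and 3, the fitted difference was -0.07. Their receptor signal of 1886 and 1215 CPM was found in the same libraries, and its part in the H2B result was not tested. On TPM, the H2B sums were 65.4, 94.0 and 90.8 against 68.8, 328.8 and 372.5, with the same 2 libraries high and overlapping groups.

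**Figure D2:**
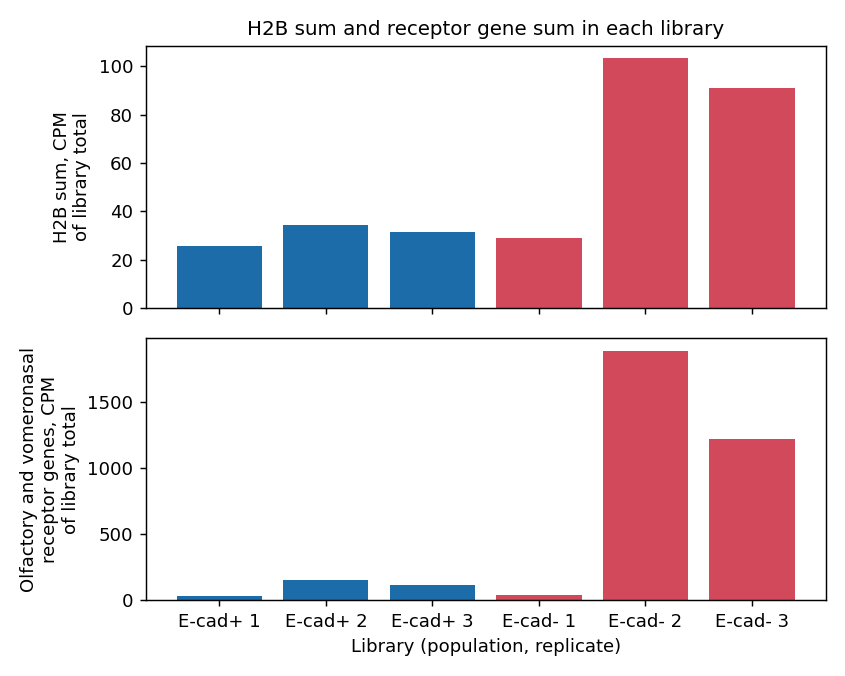
Summed H2B level (upper panel, CPM of the library total) and summed level of 1447 olfactory and vomeronasal receptor genes (lower panel, CPM of the library total) in each library (horizontal axis, E-cad+ and E-cad- for the Nanog+E-cadherin+ and Nanog+E-cadherin- populations). Nanog+E-cadherin- replicates 2 and 3 have the highest bars in both panels, with receptor sums of 1886 and 1215 CPM.

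The other classes had smaller fitted changes, all within 2 standard errors of 0, and their groups overlapped. H2A sums were 49.2, 24.6 and 24.8 CPM against 36.4, 23.1 and 18.3 CPM, higher in Nanog+E-cadherin+ within each of the 3 replicate numbers, with log2 ratios of 0.43, 0.09 and 0.44. That uniform direction rested on Hist3h2a. Without this gene the H2A sums were 23.2, 11.6 and 10.8 CPM against 18.1, 12.9 and 13.3 CPM, with log2 ratios of 0.36, -0.16 and -0.30. The fitted change of the whole H2A sum was 0.34 ± 0.39 (SE), and on TPM the H2A sums gave -0.10, so the direction rests on the scale. Without Nanog+E-cadherin- replicates 2 and 3, in a fit without the block, it was -0.15, where the ratio within replicate number 1 was 0.43. H1 sums were 16.1, 20.02 and 18.7 CPM against 15.97, 26.2 and 43.2 CPM, with a fitted change of -0.63 ± 0.39. These H1 values overlapped and were highest in Nanog+E-cadherin- replicates 2 and 3, and without those 2 libraries the change was 0.19. H3 sums were 13.3, 2.496 and 3.26 CPM against 8.92, 2.69 and 5.88 CPM, and H4 sums 9.11, 5.84 and 4.28 CPM against 7.42, 3.72 and 6.51 CPM. For both classes replicate 1 was the highest library of its population, and the fitted changes, 0.12 ± 0.79 and 0.11 ± 0.53, were smaller than their errors. The sign of both turned negative on TPM, and without Nanog+E-cadherin- replicates 2 and 3 they were -0.49 and -0.22. Within replicate number 1 the log2 ratios were 0.57 for H3 and 0.29 for H4. Exact two-sided permutation tests gave p = 0.5 for H2A, 0.4 for H1, 0.9 for H3 and 0.8 for H4.

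**Figure D3:**
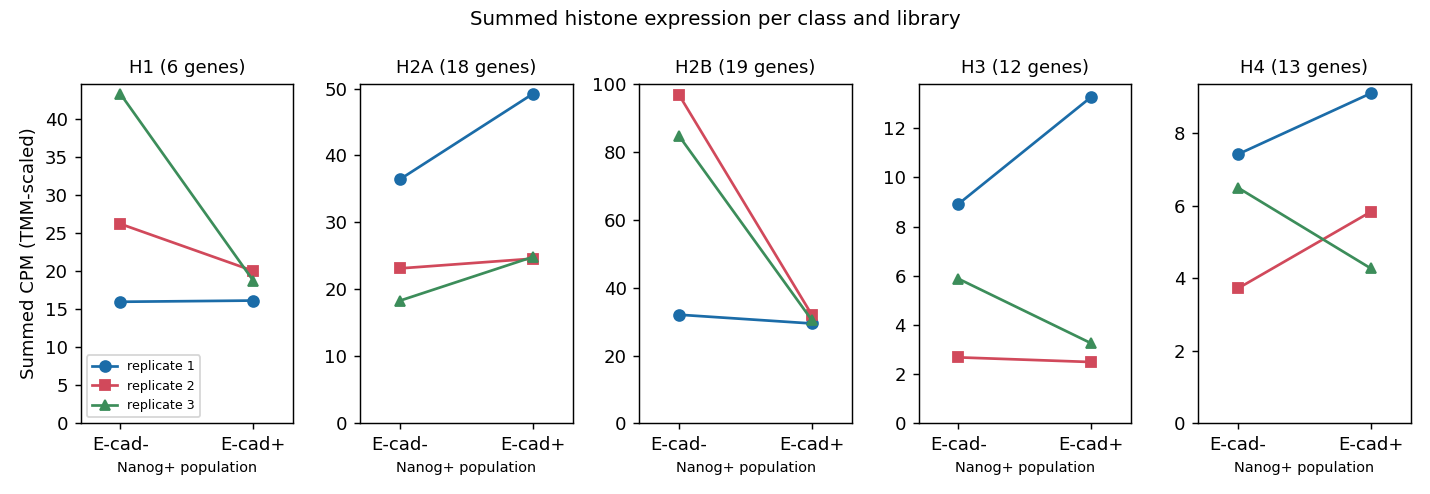
Summed CPM (vertical axis, TMM-scaled, from 0, with a scale of its own in each panel) of the genes of each histone class in both populations (horizontal axis). Lines join libraries of equal replicate number, and H2B falls from 96.8 to 31.9 CPM in replicate 2 and from 84.7 to 30.4 CPM in replicate 3 but changes little in replicate 1.

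The class make-up of the histone counts differed between libraries. H2B held 25.1%, 37.6% and 37.3% of the histone counts in the Nanog+E-cadherin+ replicates and 31.8%, 63.5% and 53.4% in the Nanog+E-cadherin- replicates. H2A held 42.0%, 29.0% and 30.5% against 36.1%, 15.2% and 11.5%. In Nanog+E-cadherin- replicates 2 and 3 the H2B share exceeded the H2A share several-fold, whereas in replicate 1 of both populations H2A held more. Over all 68 genes the sums were 117, 84.9 and 81.5 CPM against 101, 153 and 159 CPM. The fitted change of this total was -0.54 ± 0.26, and -0.53 ± 0.23 with the replicate block, where edgeR's quasi-likelihood test gave an adjusted p of 0.463. Without Nanog+E-cadherin- replicates 2 and 3 and without the block it was -0.10, where the log2 ratio within replicate number 1 was 0.22.

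Single genes were tested where counts allowed. Of the 68 members, 25 passed the filter on low counts, a filter that a gene high in 1 population can pass through that population alone. The other 43 summed to 129 to 638 counts per library, with at most 71.2 counts in a single gene. Among the 25, 10 were fitted higher and 15 lower in Nanog+E-cadherin+ cells, where 48.5% of all tested genes were fitted higher and 51.5% lower. In edgeR's quasi-likelihood test 0 of the 25 were called at an adjusted p under 0.05, where 0% of 13460 genes were, and the smallest adjusted p among members was 0.9999. With the replicate block 0 of 25 passed against 0.305% of all genes (0.215% higher and 0.0892% lower), and the smallest adjusted p in edgeR among them was 0.263. DESeq2 without the block called 0 of the 25, where it called 21 genes in all. With the block it called 2, Hist1h2ah and Hist1h2bf, where it called 304 of all genes. limma-voom called 0 of the 25 in both fits, where it called 264 of all genes with the block. Without replicate number 1, edgeR with the block called Hist1h2bc (-1.45) and Hist1h2bf (-4.68), where it called 182 of all genes. It called 0 members without number 2 or 3, where it called 140 and 449 of all genes. At an unadjusted p under 0.05 without the block, 2 members stood lower, Hist1h2bc and Hist1h2bf, and 0 higher, against 2.67% of all genes (1.58% lower and 1.08% higher). With it, 2 stood higher, Hist1h2ah and Hist3h2a, and the same 2 lower, against 10.7% of all genes (5.51% higher and 5.19% lower). None of the 25 had groups that did not overlap, against 6.99% of all genes tested (3.74% higher and 3.25% lower). Their median log2 fold change was -0.60 without and 0.003 with the block, against -0.01 and 0.02 over all genes.

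**Figure D4:**
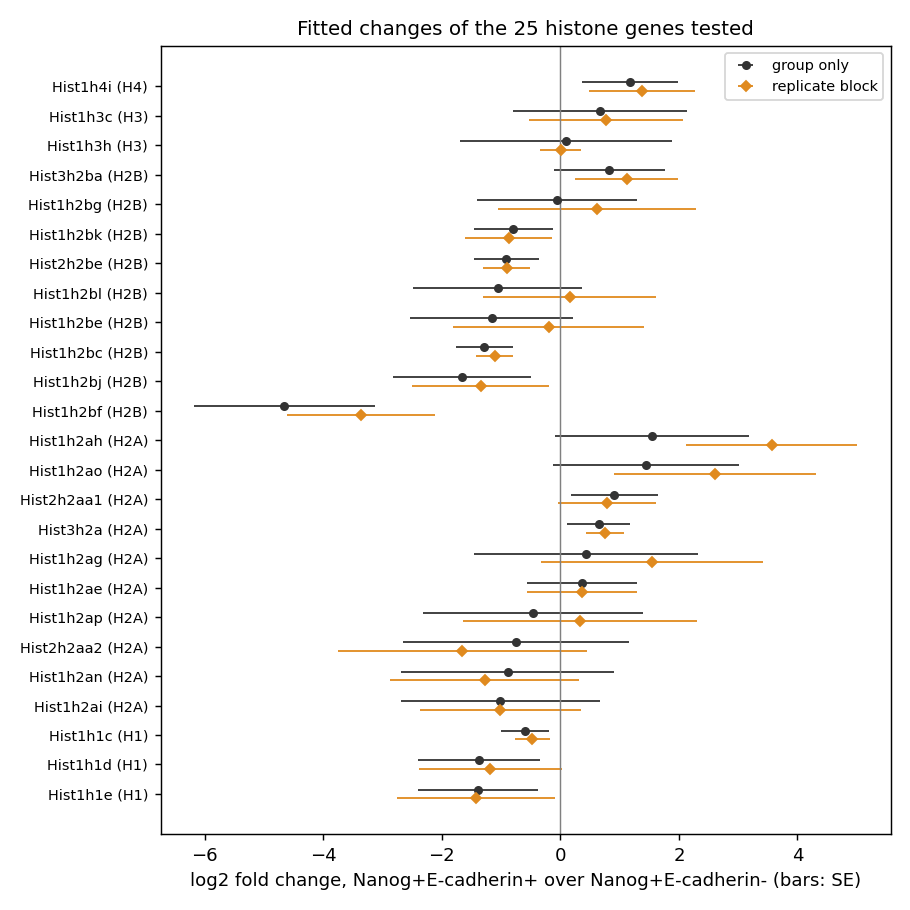
Log2 fold changes of the 25 tested histone genes (horizontal axis, Nanog+E-cadherin+ over Nanog+E-cadherin-; bars are standard errors), ordered by class, without (circles) and with (diamonds) the replicate block. Of the 9 tested H2B genes, 8 lie below 0 without the block, and Hist1h2bf lies lowest at -4.66.

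Among the H2B genes, 9 were tested, of which 1 was fitted higher and 8 lower, and 6 were lower with the replicate block. Hist1h2bc had the largest H2B count in each library, with expected counts of 190, 183 and 296 in the Nanog+E-cadherin+ replicates and 490, 596 and 287 in the Nanog+E-cadherin- replicates. Per length it stood at 19.8, 42.9 and 42.0 TPM against 28.0, 159.8 and 98.9 TPM. The highest libraries were again Nanog+E-cadherin- replicates 2 and 3, while replicate 1 lay within the range of the other population. Its fitted log2 fold change was -1.28 ± 0.48, and -1.11 ± 0.31 with the block, where the adjusted p in edgeR was 0.263. Without the 2 libraries that stood apart and without the block it was -0.08, where the log2 ratio within replicate number 1 was -0.40. Its coding sequence is 99.5% identical to that of Hist1h2br.

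Hist1h2bf had the largest fitted change among the 25 tested members. It had 3.89, 8.34 and 5.23 counts in the Nanog+E-cadherin+ replicates and 6.51, 57.4 and 211 in the Nanog+E-cadherin- replicates, or 0.83, 4.03 and 1.53 TPM against 0.77, 31.7 and 150 TPM. The high counts were again those of Nanog+E-cadherin- replicates 2 and 3, and replicate 1 of both populations was near the same low level. The fitted change was -4.66 ± 1.52. Without Nanog+E-cadherin- replicates 2 and 3 its sign turned, to 0.81. Hist1h2ad, the H2A gene that faces it, had 35.5 counts in Nanog+E-cadherin- replicate 1 and 0 in the other 5 libraries.

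Leaving out these genes did not level the H2B sum. Without Hist1h2bc it was 19.0, 18.1 and 15.6 CPM against 18.3, 45.2 and 54.6 CPM. Without Hist1h2bf as well it was 18.8, 17.5 and 15.3 CPM against 18.1, 40.2 and 32.4 CPM. The same 2 libraries remained high when both genes were removed.

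The other leading H2B genes had smaller fitted changes. Hist2h2be, a gene of the Hist2 cluster whose closest copy has 88.4% coding identity, had 68, 117 and 94.98 counts against 204, 155 and 129. Scaled to depth this was 3.74, 8.85 and 4.76 CPM against 5.74, 13.4 and 13.5 CPM, with a fitted change of -0.91 ± 0.55 and overlapping groups. Hist1h2bk had 68.4, 34.2 and 24.9 counts against 124, 45.0 and 55.3, a fitted change of -0.79 ± 0.66. Hist3h2ba was the H2B gene fitted higher, with 96, 25 and 54.8 counts against 122.6, 20 and 3, and a change of 0.83 ± 0.94. All 3 changes were within 2 standard errors of 0, and without Nanog+E-cadherin- replicates 2 and 3 they were 0.0023, -0.47 and -0.06. Within replicate number 1 the log2 ratios of these 3 genes were -0.62, 0.10 and 0.61.

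Among the H2A genes, 10 were tested, 6 fitted higher and 4 lower. Hist3h2a, whose closest copy has 89.7% coding identity, had 471, 172 and 281 counts in the Nanog+E-cadherin+ replicates and 652, 118 and 48.0 in the Nanog+E-cadherin- replicates. Scaled to depth these were 25.9, 13.0 and 14.1 CPM against 18.3, 10.2 and 5.04 CPM. It was higher in Nanog+E-cadherin+ within each replicate number, with log2 ratios of 0.50, 0.35 and 1.48, although the groups overlapped. Its fitted change was 0.65 ± 0.53, and 0.76 ± 0.32 with the block, where the adjusted p in edgeR was 0.443. Without Nanog+E-cadherin- replicates 2 and 3 and without the block the change was -0.06, where the ratio within replicate number 1 was 0.50.

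Hist1h2ah, whose promoter is printed above, had 113, 37.7 and 50.7 counts against 135, 0 and 0. Hist1h2ao likewise had 26.7, 19.1 and 5.53 counts against 37.0, 0 and 0. Its coding sequence is identical to that of Hist1h2ap, which had 36.69, 10.25 and 0 counts against 9.26, 42.05 and 0. The 0 of Hist1h2ao in Nanog+E-cadherin- replicate 2 may therefore rest on how reads were split between these copies. For Hist1h2ah and Hist1h2ao, the Nanog+E-cadherin- libraries split into replicate 1 and 2 libraries at 0. Replicate 1 is the deepest library and had 3.799 CPM of Hist1h2ah and 1.04 CPM of Hist1h2ao. For a gene that shares no reads, 0 allows up to 3 counts, which is 0.260 and 0.315 CPM in these 2 libraries. Hist1h2ah stood at 6.22, 2.88 and 2.55 CPM in the other population. Its reads may have been given to a copy in the libraries at 0, so this limit does not bound its level there. The block fit gave Hist1h2ah a change of 3.56 ± 1.45 with an adjusted p of 0.434 in edgeR. Without the 2 libraries at 0 and without the block, the change was 0.03 for Hist1h2ah and 0.03 for Hist1h2ao. Within replicate number 1 their log2 ratios were 0.71 and 0.51. Hist1h2af went the other way, with 6.95, 0 and 71.2 counts in the Nanog+E-cadherin- replicates and 0 in the 3 Nanog+E-cadherin+ libraries, and it was too low to be tested.

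The 12 head-to-head pairs show the contrast of the classes within shared loci. Summed over the pairs, the H2B genes had 402, 374 and 519 counts in the Nanog+E-cadherin+ replicates and 934, 969 and 790 in the Nanog+E-cadherin- replicates. Of these H2B counts, Hist1h2bc and Hist2h2be held 596 and 155 in Nanog+E-cadherin- replicate 2 and 287 and 129 in replicate 3. The H2A partners of the pairs had 360, 108 and 126 counts against 525, 119 and 39. In CPM the H2B sum was 22.1, 28.3 and 26.0 against 26.3, 83.9 and 82.9, and the H2A sum 19.8, 8.14 and 6.31 against 14.8, 10.3 and 4.07. In CPM, the H2B sum of the pairs was high in the 2 libraries that stood apart. On that scale Nanog+E-cadherin- replicate 1, the deepest library, lay within the range of the other population for both sums. Pair by pair the H2B side was not uniformly higher: it exceeded its partner in 4, 5 and 9 pairs in the Nanog+E-cadherin+ replicates and in 4, 8 and 6 in the others. The H2A side was higher in 7, 6 and 2 pairs and in 7, 2 and 2, and the remaining pairs were equal. In the 2 libraries that stood apart, 8 and 9 of the 12 H2A partners were at 0, against 1 to 5 in the other 4. The H2B partners were also most often at 0 there, 3 and 6 of 12 against 1 or 2. At the pair of Hist1h2ac and Hist1h2bc, Hist1h2ac had 4.74, 6.54 and 6.62 counts against 13.5, 22.7 and 0, far below its partner in each library.

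The linker histone genes were led by Hist1h1c, which held 82.3% to 91.1% of the H1 counts. It had 261, 237 and 341 counts against 467, 271 and 366, which is 14.4, 17.9 and 17.1 CPM against 13.1, 23.5 and 38.4 CPM. The highest value was that of Nanog+E-cadherin- replicate 3, and the groups overlapped. Its fitted change was -0.60 ± 0.41, within 2 standard errors of 0, and without Nanog+E-cadherin- replicates 2 and 3 it was 0.32. The 2 other tested H1 genes, Hist1h1d and Hist1h1e, had at most 35.9 counts and fitted changes of -1.37 ± 1.02 and -1.39 ± 1.01. Hist1h1a and Hist1h1b, 2 further somatic linker histone genes, had 4 to 13 counts in the Nanog+E-cadherin+ libraries, and both were at 0 in Nanog+E-cadherin- replicate 2.

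H3 and H4 genes were scarce. Only Hist1h3c and Hist1h3h of the 12 H3 genes and only Hist1h4i of the 13 H4 genes were tested. Hist1h3h had 65.6, 0 and 5.09 counts against 43.3, 27.9 and 0, so each population held 1 library at 0. Hist1h4i had 52.5, 42.6 and 40.6 counts against 77.7, 6.78 and 7.21, which is 2.86, 3.25 and 2.05 CPM against 2.20, 0.61 and 0.73 CPM. It was higher in Nanog+E-cadherin+ within each replicate number, by 0.38, 2.42 and 1.48 on the log2 scale, and the fitted change was 1.17 ± 0.81, or 0.30 without Nanog+E-cadherin- replicates 2 and 3. Hist1h4k stood at 0.50, 0.53 and 0.10 CPM against 0.70, 2.42 and 1.78 CPM. These did not overlap, but on TPM they did, at 2.54, 4.19 and 0.91 against 3.81, 19.4 and 14.9. It had at most 27.7 counts and was not tested, and its 16.6 counts in Nanog+E-cadherin- replicate 3 equal those of Hist1h4a and Hist1h4b. The remaining leading genes of these classes, Hist1h3a and Hist1h4b, reached their highest count in Nanog+E-cadherin- replicate 3, at 40.8 and 16.6, and were at 0 in replicate 2 of that population.

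Most replication-independent variant genes were fitted higher in Nanog+E-cadherin+ cells. Of 16 listed, 11 were tested, 9 fitted higher and 2 lower, with 0 called in edgeR and a median log2 fold change of 0.25. With the block 10 were fitted higher, 3 of them at an unadjusted p under 0.05, where 5.51% of all genes were. H2afz had fitted changes of 0.36 ± 0.37, and 0.34 ± 0.12 with the block. H3f3a and H3f3b, both encoding H3.3, had 0.13 ± 0.30 and 0.22 ± 0.40. H2afx, whose product marks DNA breaks when phosphorylated and whose mRNA can end with or without a poly(A) tail, stood at 581, 244 and 225 CPM against 332, 157 and 73.3 CPM. It was higher in Nanog+E-cadherin+ within each replicate number, by 0.81, 0.63 and 1.62 on the log2 scale, with a change of 1.01 ± 0.20 and an adjusted p of 0.113 in edgeR with the block. With the block it passed the threshold in DESeq2 (adjusted p = 2.4e-05) and limma-voom (adjusted p = 0.00354), fits that called 304 and 264 of all genes. H2afx was named for its small p in the blocked edgeR fit of these data, so its passing is no separate support. Cenpa, the centromeric H3 gene, stood at 163 ± 93.7 against 110 ± 50.3 CPM (SD, n = 3). H1f0, a linker variant of slowly dividing cells, stood at 392 ± 90.3 against 329 ± 141 CPM (SD, n = 3).

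The genes that transcribe histone loci and form the stem-loop end were fitted in both directions. Of 22 listed, 21 were in the tables and all 21 were tested, 12 fitted higher and 9 lower, with 0 called and a median of 0.04. Slbp, encoding the stem-loop binding protein, stood at 122, 77.0 and 57.7 CPM against 103, 50.1 and 59.9 CPM. Npat, the coactivator of histone loci, stood at 16.4, 22.9 and 16.6 CPM against 17.1, 25.8 and 39.99 CPM, the last of these the highest. Casp8ap2, which encodes the histone locus body protein FLASH, stood at 19.9, 13.4 and 9.41 CPM against 13.2, 5.11 and 20.2 CPM. None of the 3 separated the populations. The groups of 2 of the 21, Ttf2 and Zfp473, did not overlap, where those of 6.99% of all genes tested did not. So small a count does not set the list apart. Zfp473, which encodes a zinc finger protein of the complex that cuts histone pre-mRNA, was low at 4.79, 4.01 and 2.85 CPM against 1.44, 0 and 1.89 CPM, with a fitted change of 1.80 ± 1.203. Ttf2, a transcription termination factor, stood at 85.4 ± 2.97 against 54.3 ± 14.04 CPM (SD, n = 3). In edgeR with the block, its adjusted p was 0.271. Ncbp2, the small subunit of the nuclear cap-binding complex, leaned the other way, with a block change of -0.41 ± 0.17.

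Most histone chaperone and S phase genes were fitted higher in Nanog+E-cadherin+ cells, without calls in edgeR on all 6 libraries. Of 25 chaperone and deposition genes, 22 were fitted higher and 3 lower, with 0 called and a median of 0.17. Chaf1a, the large subunit of CAF-1, stood at 147 ± 10.1 against 103 ± 33.8 CPM (SD, n = 3). Asf1b, another replication-coupled chaperone, stood at 48.5 ± 14.8 against 32.6 ± 10.5 CPM, and Nasp, a carrier of soluble histones, at 229 ± 79.8 against 209 ± 49.8 CPM. Hat1, which acetylates new H4, stood at 112 ± 36.5 against 70.1 ± 35.3 CPM, with a block change of 0.73 ± 0.16. Hjurp, the chaperone of CENP-A, had groups that did not overlap, at 350 ± 15.9 against 235 ± 12.3 CPM (SD, n = 3), with a block change of 0.57 ± 0.13 and an adjusted p of 0.177 in edgeR. Of 30 genes of G1-S transition and DNA replication, 29 were fitted higher and 1 lower, with a median of 0.46, or 0.54 with the block, and 0 were called in either fit. At an unadjusted p under 0.05, 20 of them stood higher with the block, where 5.51% of all genes did. In DESeq2 and in limma-voom with the block, the named genes Pcna, Rrm2, Mcm10, Hat1 and Hjurp passed the threshold, with adjusted p of 7.5e-05 to 0.0115 in DESeq2 and 0.00729 to 0.0422 in limma-voom. These fits called 304 and 264 of all genes. Mcm10, Hat1 and Hjurp were named for their small p in the blocked edgeR fit of these data, so their passing is no separate support. Passes over the whole lists were not counted.

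Pcna, the replication clamp, was 0.56, 0.78 and 0.90 log2 units higher in Nanog+E-cadherin+ within replicate numbers 1, 2 and 3. Its block change was 0.75 ± 0.14, with an adjusted p of 0.0978 in edgeR, although its groups overlapped at 361 ± 158 against 223 ± 125 CPM (SD, n = 3). Without Nanog+E-cadherin- replicates 2 and 3, and without the block, its change was -0.02. Rrm2, a subunit of the enzyme that makes deoxynucleotides, had a block change of 0.61 ± 0.14. Ccne2, the gene of the G1-S cyclin E2, was low at 6.29 ± 0.82 against 4.36 ± 2.09 CPM (SD, n = 3). Mcm10, a replication initiation factor, stood at 114, 101 and 88.2 CPM against 80.0, 57.9 and 47.5 CPM, without overlap. Pcna was lowest in Nanog+E-cadherin- replicates 2 and 3, at 174 and 131 CPM, where the total histone sum and the H1 and H2B sums were highest. This contrast did not hold for every class. The H2A sum was also lowest in those libraries, and the H2A, H3 and H4 sums were highest in replicate 1 of each population. Shares of cells in S phase were not measured, and in bulk libraries more cells in a state and more RNA per cell cannot be told apart.

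**Figure D5:**
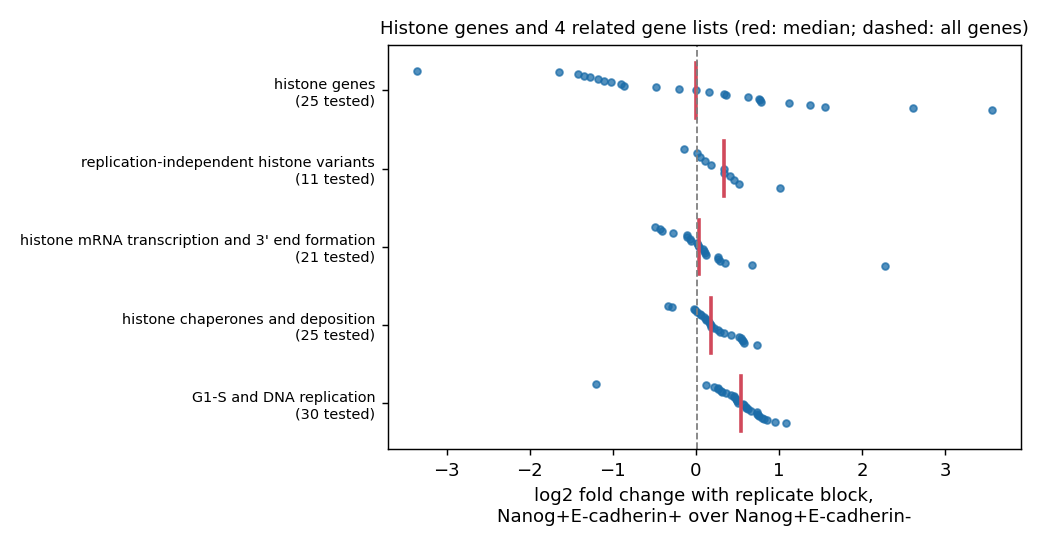
Log2 fold changes with the replicate block (horizontal axis, Nanog+E-cadherin+ over Nanog+E-cadherin-) of the tested genes of 5 groups (vertical axis); points are genes, red bars group medians and the dashed line the median of all tested genes, 0.02. The histone genes spread widely around a median of 0.003, while 29 of 30 genes of G1-S transition and DNA replication lie above 0 around a median of 0.54.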

How the data were processed

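Sample titles gave the groups and replicate numbers. Per the labels' protocols, day 7 cultures were fixed, stained, permeabilised, sorted and decrosslinked before RNA isolation. Bowtie, RSEM 1.2.4 and build mm9 are named in the submitters' processing notes (settings and strand: not given in the sources used here). The deposited expected counts need not be whole and were rounded before count tests. The TPM values are those the authors deposited, and log2(TPM + 1) and log2(TPM + 0.1) were used as alternatives. The members, lists and tests were chosen with earlier results of these data known. Histone genes named are, per class, the 3 of highest mean TPM, any called in either edgeR fit and the 5 of smallest blocked p in each direction; from each list, key genes and the 2 of smallest blocked p. Other histone genes named were chosen after their values were seen.

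Counts were fitted with edgeR 4.0.16 (R 4.3.3) by quasi-likelihood, with group as the only term, TMM factors and the filterByExpr limits of 10 (count) and 15 (total). The 13460 p-values were adjusted by Benjamini-Hochberg. Class sums were fitted with the members of each class merged into 1 gene. CPM is TMM-scaled, except for receptor sums, cell type marker sums and values said to be of library totals, which are scaled to library totals alone. Fold changes above 0 are higher in Nanog+E-cadherin+. Deviations from the group means correlated at 0.79, 0.45 and 0.54 between libraries of equal number and at -0.65 to 0.16 otherwise, so the block is given beside results. Alternatives were DESeq2 1.42.0, limma 3.58.1 and other settings. Scripts were tested on simulated data. No mm9 genome was used; sequences are of GRCm38.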

Additional observations from a re-analysis of the deposited data

How the results depend on the processing

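H2B and the sum of all 68 genes kept a negative sign in the 21 alternatives run, but were -0.07 and -0.10 without Nanog+E-cadherin- replicates 2 and 3. H2B passed the threshold with the replicate block in DESeq2 (-1.06), in limma-voom (-1.08) and in edgeR without replicate number 1 (-1.52). Pairing by replicate number, the replicate block in edgeR, gave H3 -0.11 and a histone median of 0.0025 with 41 genes called in all; with DESeq2 and the block these were -0.10, 0.034 and 304, and 264 were called with limma-voom and the block. The block changed no other class call. With the block and without replicate number 1, 2 or 3, 182, 140 and 449 genes were called. Without number 1, H3 was -0.47. Without number 2, H3 was -0.11, H4 -0.16, Casp8ap2 -0.24 and the histone median 0.51. Without number 3 that median was -0.17 and Hist1h3h -0.93. Histone genes called were 2 with the block in DESeq2 and 2 with the block without number 1, and 0 otherwise. Unblocked, DESeq2 called 21 genes, and fitting without a filter on low counts called 1 and gave a median of 0.054. limma-voom gave H3 -0.35, H4 -0.050 and Hist1h3h -0.93, and library totals alone gave Hist1h3h -0.10. On log2(TPM + 1) and log2(TPM + 0.1), H2A was -0.095 and -0.096, H3 -0.21 and -0.22, H4 -0.27 and -0.28, and Hist1h3h -0.44 and -0.61; the median on the latter was 0.021.

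Leaving out each library in turn gave ranges of -0.91 to -0.20 for H1, -0.073 to 0.67 for H2A, -1.56 to -0.92 for H2B, -1.02 to 0.59 for H3, -0.23 to 0.36 for H4 and -1.06 to 0.055 for the median. Without Nanog+E-cadherin+ replicate 1 the signs of Casp8ap2 (-0.17), Cenpa (-0.013), H3f3a (-0.11), H3f3b (-0.15), Hist1h3h (-3.13), Nasp (-0.19) and Slbp (-0.075) turned. Without Nanog+E-cadherin- replicate 2 that of Casp8ap2 did (-0.22), and without replicate 3 those of H1f0 (-0.053), Hist1h3h (-0.46) and Nasp (-0.011). The highest values over single left-out libraries were 1.01 for Hist1h3h, 0.63 for Casp8ap2, 0.65 for Slbp, 0.30 for H3f3a, 0.49 for H3f3b, 0.52 for H1f0, 0.34 for Nasp and 1.02 for Cenpa. Without both Nanog+E-cadherin- replicates 2 and 3, where the single Nanog+E-cadherin- library left was assumed to vary like the other group, H1 was 0.19, H2A -0.15, H3 -0.49, H4 -0.22 and the median -0.16. That fit has no replicate block, so population and replicate number are mixed in it. Signs also turned there for Hist1h1c (0.32), Hist1h2bf (0.81), Hist1h3c (-0.29), Hist2h2be (0.0023), Hist3h2a (-0.056), Hist3h2ba (-0.063), Npat (0.12), Slbp (-0.26), H2afz (-0.062), H3f3a (-0.12), H3f3b (-0.15), Cenpa (-0.043), Nasp (-0.21), Ccne2 (-0.10), Pcna (-0.022) and Rrm2 (-0.11). For all of these the cause was not tested. Of 666 values over 32 named genes, 607 kept their direction and side of the threshold. Low counts left 43 of 68 members untested.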
